A study of Mus musculus with 1073 samples.

Results

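Haematopoietic progenitor cells (HPCs) of the C57BL/6 mouse yolk sac were compared between E8.25 and E8.5. The cells were chosen by their labels, as those that the labels call erythro-myeloid progenitors (EMPs) of these 2 stages. No measured value entered the rule, though earlier results of these data were known. The labels differ on the stage of the younger cells. Their titles give E8.25, but the cell names within the titles read E8.5 PreHPC. The stage outside the cell name was used. They were 73 cells at E8.25 and 89 at E8.5, 162 of the 926 cells that passed the study's quality filter. The study sorted yolk sac populations between E7.25 and E10.5, captured single cells on the Fluidigm C1 system and sequenced each cell as a library of its own. Both sets of progenitors came from untreated embryos, were freed with collagenase/dispase and sorted with the same gate, TER119- CDH5+ CD41+. CDH5 is VE-cadherin, an endothelial junction protein, CD41 (*Itga2b*) is an integrin of early blood progenitors and megakaryocytes, and TER119 marks erythroid cells. Levels in other populations of the same strain are given beside those of the progenitors where they add to the description: E9.5 HPCs (46 cells), E10.5 HPCs (87 cells), E8.5 endothelium (Endo, TER119- CD41- CDH5+, 79 cells), E8.5 megakaryocytes (Mk, CDH5- CD41+, 37 cells), E8.5 primitive erythroid cells (EryP, TER119+, 66 cells) and E10.5 macrophages (Mac, CD45+ CD41-, 25 cells). The later HPCs were sorted with CD45 and without CDH5, so that levels of *Ptprc*, which encodes CD45, and of *Cdh5* follow the gate there.

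Erythro-myeloid progenitors are the transient wave of blood progenitors that buds from haemogenic endothelium in the yolk sac before stem cells appear in the embryo. Cells in passage from endothelium to blood lose junction and angiogenic receptor genes under the action of RUNX1 and its targets GFI1 and GFI1B, and gain the signalling adaptors, actin regulators and granule proteins that leukocytes use. The 2 stages lie at the start of this wave, and the comparison asked which of these gene groups already differed between them.

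The cells of each stage were sequenced on a single lane and were taken as a single capture. The labels name no embryo or pool behind a cell. A stage is therefore 1 sample. No test was run, ranges and intervals describe cells and counting error only, and stage, capture and lane cannot be told apart. Both lanes belonged to 1 flow cell, and 74 of the index pairs that named the 79 and 90 captured cells occurred on both lanes. Total counts per cell ran from 663946 to 3242276 (median 1966444) at E8.25 and from 883020 to 2586615 (median 1555237) at E8.5. Cells with at least 5 counts of *Xist* and at least 5 of 4 Y-linked genes, here called cells with transcripts of both sexes, were 26 of 73 (35.6%, exact 95% interval 24.8 to 47.7) at E8.25 and 40 of 89 (44.9%, 34.4 to 55.9) at E8.5. With 50 counts of each asked for, they were 5 and 11 cells. Doublets, RNA free in the suspension and reads switched between libraries cannot be told apart in these cells. No doublets were removed from the values below.

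A few cells stood apart. Mitochondrial genes took a median of 3.16% of counts at E8.25 and 3.17% at E8.5, but 4 cells at E8.25 (16.8, 23.2, 53.7 and 61.4%) and 2 at E8.5 (15.6 and 35.2%) lay above 15%. The levels below are CPM, the counts of a cell scaled by its size factor. They summed to between 1468055 and 2483693 in 5 of these 6 cells, against a median of 981514 over all cells at E8.25 and 996407 at E8.5. In these 5 cells 1 count gave a larger CPM than in most others. Means and ratios are therefore given over all cells and again without these 6 cells.

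**Figure D1:**
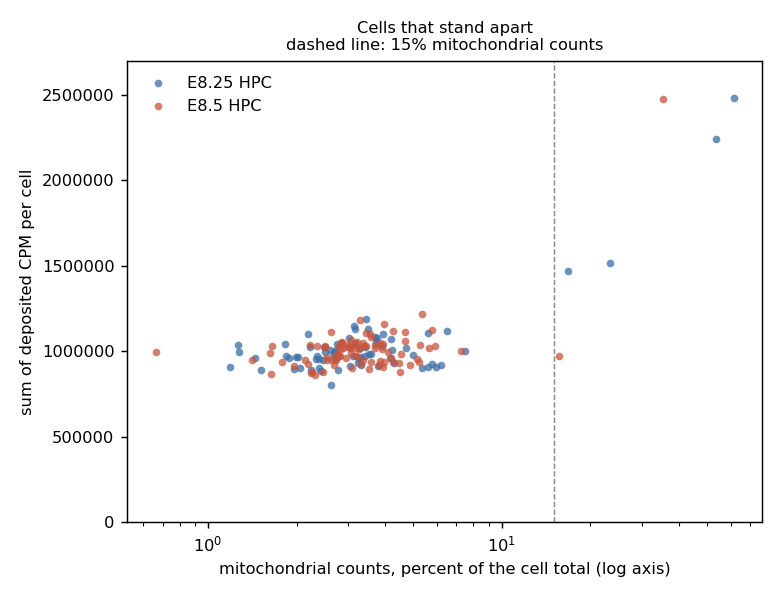
Each point is 1 HPC, with mitochondrial counts as a percentage of the cell's total on a log x axis and the sum of its deposited CPM on the y axis. The 4 E8.25 cells (blue) and 2 E8.5 cells (red) to the right of the dashed line at 15% are those left out of the second set of values, and 5 of them have CPM sums of 1468055 or more.

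The cells bore the transcripts of their gate and of progenitors at both stages. *Cdh5* was detected (1 count or more) in 93.2% of cells at E8.25 and 93.3% at E8.5, and *Itga2b* in 93.2% and 96.6%. *Kit*, the receptor for stem cell factor, was at a mean of 102.1 CPM and 107.5 CPM, and *Runx1*, the factor that starts blood formation from endothelium, at 171 and 229 CPM. Of 8 macrophage genes, *C1qa*, *Adgre1* and *Timd4* had no count in any of the 162 cells. For a count of 0 an approximate limit of 3 cells was set, which is 4.11% of cells at E8.25 and 3.37% at E8.5. It is not an exact interval. The other macrophage genes were *C1qb*, *C1qc*, *Cx3cr1*, *Cd68* and *Mrc1*. Up to 3 genes of the list had at least 10 counts in a single cell, at E8.25 and at E8.5. Of 19 mesoderm and mesenchyme genes only *Col1a2*, a collagen chain, passed the filter on level described next, at 12.6 and 8.65 CPM. The mesoderm list summed to a median of 12.2 CPM per cell (0 to 1024) at E8.25 and 3.98 (0 to 165) at E8.5. Of 8 visceral endoderm genes *Apoa1* and *Ttr* were in the filtered table, and neither was found in more than 5.62% of cells at either stage. EryP-type genes were present in part of the cells. *Hbb-bh1*, an embryonic globin, had a median of 37.1 CPM at E8.25 and 112.7 CPM at E8.5 but reached 31660 and 26745 CPM in single cells. The log2 ratio of its means was below 0, from -0.23 to -0.12 over the ways of processing given at the end. Its median was thus higher at E8.5 and its mean lower.

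The genes whose levels are described first were read together with their upstream sequence. Promoter windows of 300 bases (250 before and 50 after a RefSeq start, GRCm38.p6, printed 5' to 3' on the gene's strand) are shown for 3 leukocyte genes with higher means at E8.5 and for *Map1b*, whose mean was lower. Capitals mark 3 words searched for on both strands, or their reverse complements. The word AGATAA is bound by erythroid factors of the GATA family. The word TGTGGT is that of RUNX factors. The word CCGGAA is that of ETS factors. None of them contains another. *Coro1a* has a pair of starts in the table, and the window shown holds an ETS word while the other holds none of the 3 words.
Coro1a, chr7:126704171-126704470, minus strand: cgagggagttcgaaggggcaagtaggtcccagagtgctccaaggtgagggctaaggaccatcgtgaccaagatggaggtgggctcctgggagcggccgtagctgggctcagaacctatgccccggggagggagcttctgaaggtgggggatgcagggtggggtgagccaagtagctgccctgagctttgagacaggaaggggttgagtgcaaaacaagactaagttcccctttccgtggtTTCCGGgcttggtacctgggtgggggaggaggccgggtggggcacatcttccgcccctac
Cd44, chr2:102901616-102901915, minus strand: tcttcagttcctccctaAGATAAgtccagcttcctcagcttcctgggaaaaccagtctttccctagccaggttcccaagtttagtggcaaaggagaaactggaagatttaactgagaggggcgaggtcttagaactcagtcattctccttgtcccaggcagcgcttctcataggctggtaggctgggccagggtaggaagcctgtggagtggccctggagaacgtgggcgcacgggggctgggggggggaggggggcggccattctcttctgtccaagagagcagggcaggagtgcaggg
Fcer1g, chr1:171234300-171234599, minus strand: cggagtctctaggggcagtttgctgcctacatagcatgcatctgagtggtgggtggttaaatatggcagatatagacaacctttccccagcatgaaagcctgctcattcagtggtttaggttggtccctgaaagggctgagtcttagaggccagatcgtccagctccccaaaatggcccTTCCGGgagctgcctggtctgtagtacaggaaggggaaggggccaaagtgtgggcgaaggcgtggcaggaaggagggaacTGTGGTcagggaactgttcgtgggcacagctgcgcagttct
Map1b, chr13:99516553-99516852, minus strand: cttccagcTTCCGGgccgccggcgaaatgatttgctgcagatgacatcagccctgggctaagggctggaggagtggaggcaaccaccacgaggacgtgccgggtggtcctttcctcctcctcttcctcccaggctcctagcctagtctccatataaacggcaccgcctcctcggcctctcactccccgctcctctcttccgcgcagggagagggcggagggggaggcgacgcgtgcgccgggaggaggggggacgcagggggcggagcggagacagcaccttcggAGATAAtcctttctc
The *Cd44* window held a GATA word, the *Fcer1g* window a RUNX and an ETS word, and the *Map1b* window a GATA and an ETS word. These are matches of letters and not sites known to be bound. Over all 32851 windows of the table, a GATA word was found in 11.2%, a RUNX word in 16.8% and an ETS word in 14.9%. Windows were matched for 76.0% of the genes at least 2-fold higher at E8.5, 67.3% of those at least 2-fold lower and 71.5% of all genes compared. Since each of these shares was under 80%, a comparison of the words between these sets of genes is void and is not given.

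For each gene the ratio is log2 of mean CPM + 1 at E8.5 over mean CPM + 1 at E8.25, which understates differences of low genes. Genes were compared where the average of both means reached 10 CPM and at least 10% of the cells held a count. Of 8452 such genes, 179 (2.12%) were at least 2-fold higher at E8.5 and 260 (3.08%) at least 2-fold lower, and the median log2 ratio was 0.03. Without the 6 cells, 8411 genes were compared, 1.7% were at least 2-fold higher and 195 (2.32%) at least 2-fold lower. The higher genes that both sets of cells shared made up 71.5% of the first list and 89.5% of the second, and the lower genes 60.0% and 80.0%.

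Genes of the leukocyte programme had the highest median ratio of the 21 lists. Of 17 pan-leukocyte genes 15 were compared. Of these, 7 (*Coro1a*, *Rac2*, *Vav1*, *Lcp1*, *Cd44*, *Hcls1* and *Tyrobp*) were at least 2-fold higher at E8.5, beside 2.12% of all genes compared, and none was lower. With or without the 6 cells the list median log2 ratio was 0.97, beside 0.03 over all genes. All 15 ratios were above 0, from 0.12 (*Arhgdib*) to 1.41, and 14 were without the 6 cells. The 2 listed genes below the filter were *Ptprc* and *Cd52*. Without the 66 cells that carried transcripts of both sexes the list median was 0.81, and *Vav1* (0.51) and *Lcp1* (0.86) were no longer past 2-fold. With a pseudocount of 10, *Vav1* (0.99), *Hcls1* (0.74) and *Tyrobp* (0.61) were not.

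**Figure D2:**
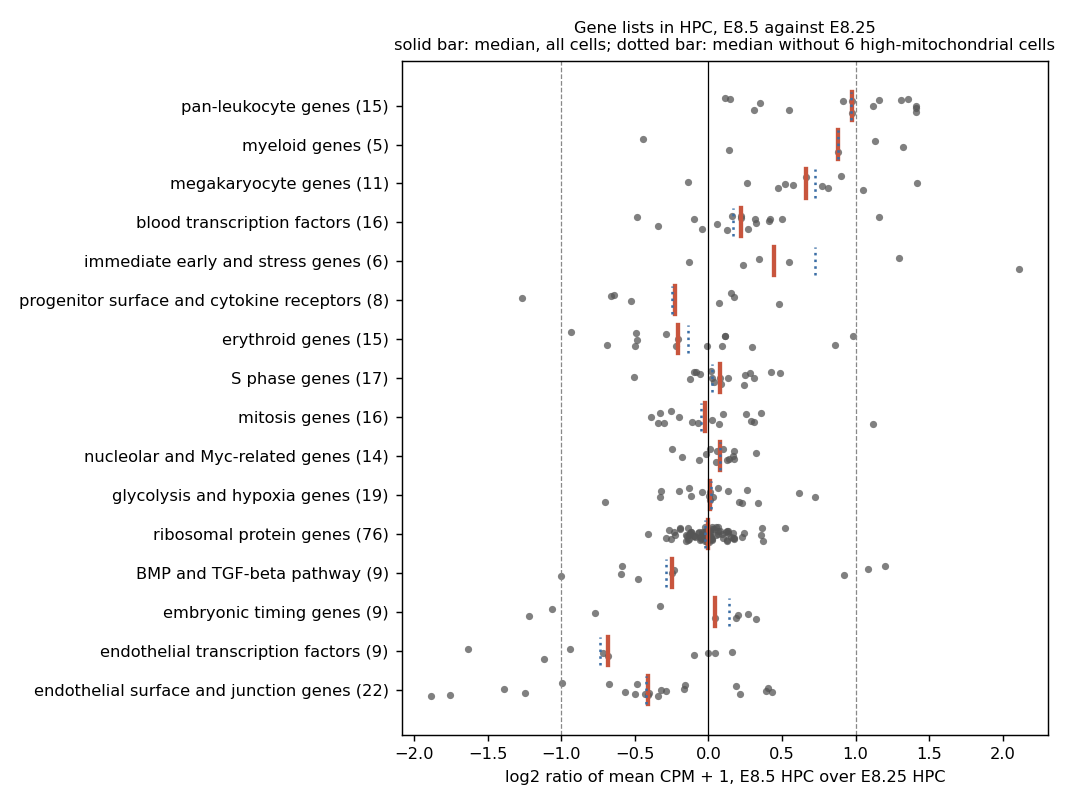
Each point is 1 gene of a named list, placed by its log2 ratio of mean CPM + 1 (E8.5 over E8.25), with the number of genes compared in brackets. Solid bars mark list medians over all cells and dotted bars those without the 6 high-mitochondrial cells. The pan-leukocyte list has its median at 0.97 and the endothelial surface list at -0.41, while the ribosomal, S phase and glycolysis lists have medians within 0.1 of 0.

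*Coro1a* (ENSMUSG00000030707, chromosome 7, 126699773 to 126707787, minus strand) encodes coronin 1A, an actin regulator of leukocytes. Over cells it ran from 0 through a median of 0 to 468 CPM at E8.25 and from 0 through a median of 44.7 to 435 CPM at E8.5. The ranges of the stages overlapped. It was found in 47.9% of E8.25 cells (exact 95% interval 36.1 to 60.0) and 76.4% of E8.5 cells (66.2 to 84.8), with means of 38.1 and 95.7 CPM and a log2 ratio of 1.31 (1.26 without the 6 cells). Of all couples of an E8.25 and an E8.5 cell, the E8.5 cell was higher in 69.1%, with ties counted as equal shares to each side. *Rac2*, a small GTPase of blood cells, showed the same kind of pattern, from 0 through 0.659 to 208 CPM at E8.25 and from 0 through 31.7 to 782 CPM at E8.5. Its means were 30.1 and 81.7 CPM (log2 ratio 1.41, 1.36 without the 6 cells).

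*Plek*, pleckstrin, a protein kinase C substrate of platelets and leukocytes, was the most abundant of the named leukocyte genes. It ran from 0 through 293 to 4355 CPM at E8.25 and from 1.08 through 1095 to 3658 CPM at E8.5, where every cell held at least 1 count. Cells with at least 10 counts made up 72.6% at E8.25 and 95.5% at E8.5, and the E8.5 cell was higher in 72.6% of couples. The log2 ratio of its means, 629 and 1237 CPM, was 0.97, just under the 2-fold limit.

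*Cd44*, the hyaluronan receptor, ran from 0 through 17.9 to 376 CPM at E8.25 and from 0 through 104.8 to 835 CPM at E8.5 (log2 ratio 1.16, 1.08 without the 6 cells). *Vav1*, a guanine nucleotide exchange factor of blood cells, was found in 27.4% of cells (17.6 to 39.1) at E8.25 and in 60.7% (49.7 to 70.9) at E8.5. *Lcp1*, L-plastin, had means of 24.6 and 67.3 CPM and *Hcls1*, a cortactin homologue of blood cells, of 5.19 and 15.4 CPM. *Tyrobp* (DAP12), an adaptor of immune receptors, had means of 6.41 and 15.1 CPM and a log2 ratio of 1.12. *Fcer1g*, the Fc receptor gamma chain, had a median of 1.99 CPM (0 to 343) at E8.25 and 66.6 CPM (0 to 460) at E8.5, with a log2 ratio of 0.97, just under the 2-fold limit.

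Other leukocyte genes were not past 2-fold or were below the filter. *Laptm5*, a lysosomal membrane protein of blood cells, was found in 94.5% and 96.6% of cells (log2 ratio 0.35). *Arhgdib*, a GDP dissociation inhibitor of blood cells, was found in every cell of both stages at medians of 212 and 230 CPM. *Lcp2*, the adaptor SLP-76, had a log2 ratio of 0.92 that rested on 1 E8.5 cell with 42.7% of the stage's summed CPM, and it was 0.08 without the 6 cells. *Ptprc* (CD45) was found in 1 of 73 E8.25 cells (1.37%, 0.0347 to 7.40) and in 24.7% of E8.5 cells (16.2 to 35.0), with means of 2.06 and 14.4 CPM. *Cd52* was found in 2.74% and 11.2% of cells.

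**Figure D3:**
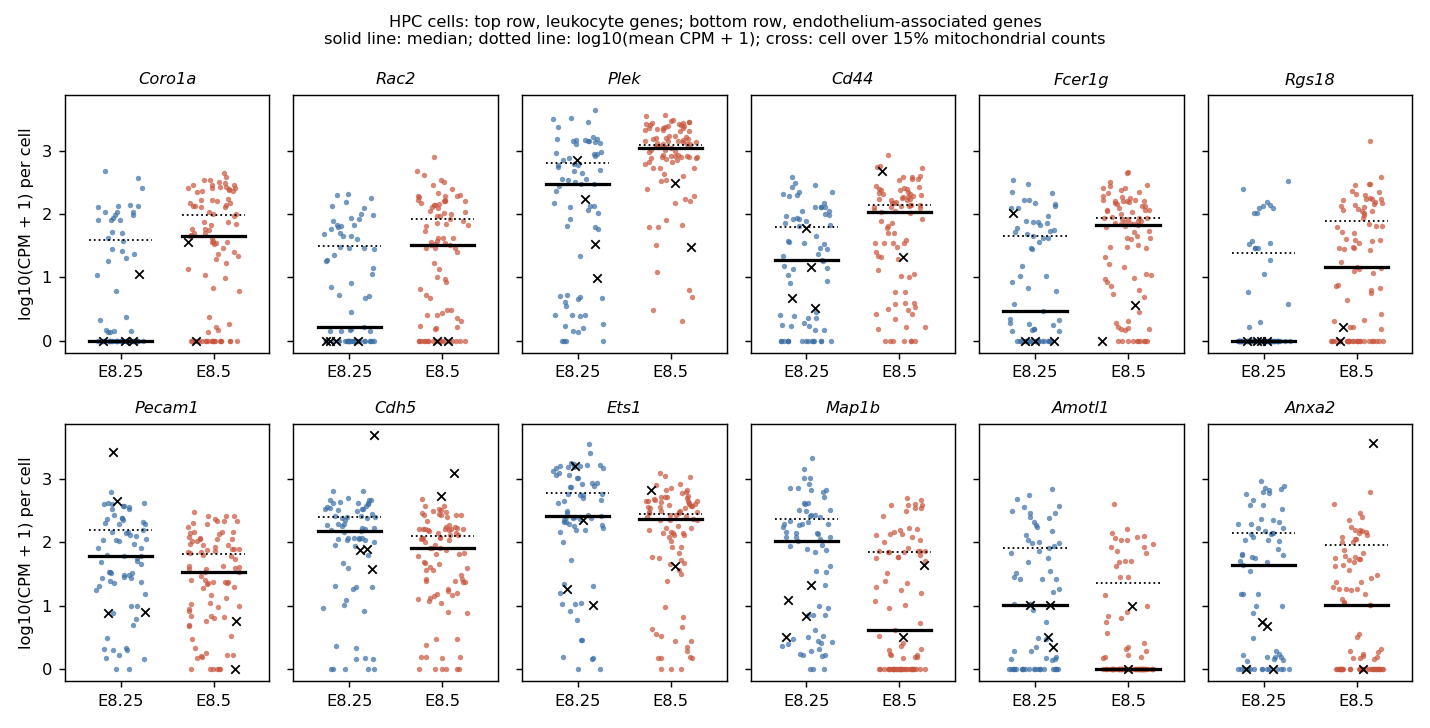
Each point is 1 HPC, placed by log10 of its CPM + 1 for the gene named above the panel, in the E8.25 (blue) and E8.5 (red) columns. Solid lines are medians, dotted lines log10 of the mean + 1, and crosses the 6 cells over 15% mitochondrial counts. In the top row the cells near 0 are fewer at E8.5 for *Coro1a* and *Plek*, and in the bottom row they are more numerous for *Map1b* and *Amotl1*.

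At 1 count or more, the myeloid genes *Mpo*, *Lyz2*, *Csf1r* and *Prtn3* were found in more cells at E8.5 than at E8.25. With at least 10 counts asked for, a cell held a median of 2 genes of the myeloid list (0 to 6) at E8.25. At E8.5 it held 3 (0 to 10). Of 15 genes 14 were in the table and 5 were compared. Of these 5, *Mpo* and *Lyz2* were at least 2-fold higher, beside 2.12% of all genes compared, and none was lower. The list median was 0.88 with or without the 6 cells, and 0.45 without the highest 5% of cells. *Lyz2* was at 0.93 without the cells with transcripts of both sexes, and *Mpo* at 0.98 with all captured cells, those that failed the quality filter included, and at 0.70 with a pseudocount of 10. *Csf3r*, the receptor for granulocyte colony-stimulating factor, had means of 60.6 and 44.2 CPM (log2 ratio -0.44, and -0.01 without the 6 cells) and was found in 57.5% and 60.7% of cells. *Mpo*, myeloperoxidase, was found in 16.4% of cells (8.79 to 27.0) at E8.25 and 42.7% (32.3 to 53.6) at E8.5, with means of 5.43 and 15.1 CPM. *Lyz2*, lysozyme, was found in 27.4% (17.6 to 39.1) and 59.6% (48.6 to 69.8). Below the filter, *Csf1r*, the receptor for macrophage colony-stimulating factor, was found in 15.1% of cells (7.77 to 25.4) at E8.25 and 39.3% (29.1 to 50.3) at E8.5, at means of 2.07 and 15.8 CPM. *Prtn3*, proteinase 3, was found in 6.85% and 28.1% of cells. *Elane*, neutrophil elastase, had no count at either stage, and *Cebpa*, a factor of granulocytes and monocytes, was found in no E8.25 cell and 3.37% of E8.5 cells. *Spi1* (PU.1) was found in 52.1% and 61.8% of cells. In E8.5 Endo, *Lyz2* had no count, and *Mpo* and *Csf1r* were found in 5.06% and 1.27% of cells.

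Megakaryocyte and platelet genes were also placed above the whole. Of 17 genes 11 were compared. *Thbs1* and *Gp1ba* were at least 2-fold higher, beside 2.12% of all genes compared, and none was lower. The median log2 ratio was 0.67 (0.73 without the 6 cells), beside 0.03 over all genes. Without the cells with transcripts of both sexes neither *Thbs1* nor *Gp1ba* was past 2-fold, at 0.66 and 0.80. *Thbs1*, thrombospondin 1 of platelet granules, was found in 21.9% of cells (13.1 to 33.1) at E8.25 and 73.0% (62.6 to 81.9) at E8.5. Cells with at least 10 counts were 15.1% and 31.5%, so at E8.5 most cells that held it had fewer. A single cell supplied 46.6% and 26.8% of the summed CPM of its stage. Its mean, 28.7 and 78.3 CPM, was 709 CPM in E8.5 Mk and 0.0609 CPM in Endo. *Rab27b*, a GTPase of platelet granule release, had medians of 31.8 and 132.6 CPM. *Itga2b*, the gene of the sorted antigen CD41, had means of 66.3 and 92.4 CPM (log2 ratio 0.47). *Treml1*, a receptor of platelet granules, was found in 24.7% and 43.8% of cells, and *Vwf*, von Willebrand factor, in 5.48% and 16.9%.

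Outside the lists, genes were named by rank. They were the 15 with the largest ratio in each direction among genes averaging at least 50 CPM, found in at least 50% of cells of the higher stage and with a median over cells on the same side. Over all cells this ranking was led by genes with single high cells. For *Appl2*, *Armc10*, *Ugp2*, *Casp8*, *Ints12*, *Tgfbr1*, *Hdac2* and *Zfp35*, 1 E8.5 cell held between 39.3% and 80.5% of the stage's summed CPM, and 7 of the 15 higher genes were still at least 2-fold higher without the 6 cells. Among the 15 lower genes 4 were still at least 2-fold lower. The mitochondrial transcripts *mt-Co2*, *mt-Nd3* and *mt-Atp6* were on the list of lower genes only with the 6 cells included. The ranking without the 6 cells, chosen after the data had been seen, is used here.

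The highest of these ratios belonged to *Rgs18*, a regulator of G-protein signalling of platelets and myeloid cells (chromosome 1, 144752683 to 144775435, minus strand). It ran from 0 through 0 to 332 CPM at E8.25 and from 0 through 13.7 to 1409 CPM at E8.5, and it was found in 28.8% of cells (18.8 to 40.6) and 69.7% (59.0 to 79.0). The means were 23.0 and 76.0 CPM, and the log2 ratio was 1.64 (1.68 with all cells). *Bin2*, a membrane-bending protein of leukocytes and platelets, followed with medians of 0.697 and 70.1 CPM and a log2 ratio of 1.53. *Pla2g4a*, the cytosolic phospholipase that releases arachidonic acid, had means of 165 and 356 CPM and medians of 97.3 (0 to 801) and 277 (0 to 1629). *Ctsc*, the protease that activates granule serine proteases, had means of 47.9 and 102.97 CPM. The remaining 11 genes were *Thbs1*, *Rac2*, *Coro1a*, *Cd44* and *Fcer1g* of the lists and *Zfp930*, *Cggbp1*, *Ibtk*, *Socs4*, *Gm5595* and *Gsto1*, with ratios from 0.97 to 1.37.

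On the other side stood genes of endothelium. Of 24 endothelial surface and junction genes 22 were compared, *Emcn*, *Aplnr*, *Nrp1* and *Pecam1* were at least 2-fold lower at E8.5, beside 3.08% of all genes compared, and none was higher. The median log2 ratio was -0.41 (-0.42 without the 6 cells), and it was -1.01 without the 66 cells with transcripts of both sexes. *Nrp1*, neuropilin 1, a co-receptor for VEGF and semaphorins, ran from 0 through 16.3 to 792 CPM at E8.25 and from 0 through 0.468 to 362 CPM at E8.5. It was found in 82.2% of cells (71.5 to 90.2) and 50.6% (39.8 to 61.3), the E8.5 cell was higher in 31.4% of couples, and the log2 ratio was -1.39 (-1.41 without the 6 cells, and -2.31 without the cells with transcripts of both sexes). *Emcn*, endomucin, was found in 28.8% of cells (18.8 to 40.6) at E8.25 and in 10.1% (4.73 to 18.3) at E8.5, with means of 35.6 and 8.92 CPM. *Aplnr*, the apelin receptor, had means of 62.5 and 17.8 CPM (log2 ratio -1.75).

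The 2 defining endothelial genes depended more on single cells. *Pecam1* (CD31) had means of 155.99 and 65.3 CPM and medians of 58.7 (0 to 2600) and 33.5 (0 to 301). The highest E8.25 value came from a high-mitochondrial cell, and the log2 ratio of -1.24 became -0.84 without the 6 cells, so that *Pecam1* left the 2-fold group. *Stab2*, a scavenger receptor of yolk sac and sinusoidal endothelium, entered it with -1.04 in place of -0.50, and was found in 67.1% of cells (55.1 to 77.7) at E8.25 and 38.2% (28.1 to 49.1) at E8.5. *Cdh5*, the gene of the sorted antigen, had means of 248 and 124.3 CPM and medians of 149.01 (0 to 4847) and 79.6 (0 to 1219), with a log2 ratio of -0.99 (-0.82). Not all the list lay lower. *Cd34*, a sialomucin of endothelium and progenitors, had means of 300 and 394 CPM, *Eng*, a TGF-beta co-receptor, of 24.7 and 33.7 CPM, and *Tie1*, *Plvap* and *Nrp2* also had ratios above 0. *Lyve1*, a hyaluronan receptor of yolk sac endothelium, was at 590 and 525 CPM with medians of 181 (0 to 5370) and 102.8 (0 to 5839). The angiogenic receptors *Kdr*, *Flt1* and *Tek* had ratios of -0.48, -0.57 and -0.41.

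Of 14 endothelial transcription factor genes 9 were compared. *Ets1* and *Mecom* were at least 2-fold lower, beside 3.08% of all genes compared. The list median was -0.68, and -0.74 without the 6 cells. *Ets1*, an ETS factor of vessel sprouting and lymphocytes, ran from 0 through 259 to 3526 CPM at E8.25 and from 0 through 232 to 1217 CPM at E8.5. The medians lay close and the means, 606 and 279 CPM, did not, since the highest cells of E8.25 were not matched at E8.5. With all captured cells its log2 ratio was -0.96, in place of -1.12. *Mecom* (EVI1), a zinc finger factor of haemogenic endothelium and stem cells, had means of 42.4 and 13.0 CPM. Below the filter, *Sox7* was found in 27.4% and 12.4% of cells, *Sox17* in 11.0% and 2.25%, and *Foxc2* in 16.4% of E8.25 cells and no E8.5 cell. Factors that blood and endothelium share had log2 ratios of -0.09 for *Fli1*, 0.05 for *Hhex* and 0.16 for *Tal1*. For *Tal1* it was -0.74 with all captured cells. *Erg* had 0.00, and -0.26 without the 6 cells.

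The 15 lower genes without the 6 cells were of mixed kinds. *Amotl1*, an angiomotin family protein of cell junctions, ran from 0 through 9.19 to 701 CPM at E8.25 and from 0 through 0 to 393 CPM at E8.5 (log2 ratio -1.83). *Map1b*, a microtubule-associated protein (chromosome 13, 99421446 to 99516540, minus strand), ran from 0 through 102.2 to 2149 CPM and from 0 through 3.09 to 506 CPM. It was found in 95.9% of E8.25 cells (88.5 to 99.1) and 64.0% of E8.5 cells (53.2 to 73.9), the E8.5 cell was higher in 28.8% of couples, and its log2 ratio was -1.75 (-1.70 with all cells). *Anxa2*, an annexin of the cell surface, had a ratio of -1.58 without the 6 cells but -0.65 with them, since 1 E8.5 cell at 3698 CPM held 46.4% of the stage's sum. Others were *Klhl13*, *Ppp1r16b*, *Nrp1*, *Akap12*, *Sepp1*, *Tuba1a*, *Tti1*, *Msantd4*, *Ets1*, *Crip2* and *Rasgrp3*, with ratios from -1.51 to -1.11.

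Many cells held leukocyte and endothelial transcripts side by side. The summed CPM of the 17 leukocyte genes had a median of 1134 per cell (62.0 to 5194) at E8.25 and 2397 (197 to 8548) at E8.5, and the E8.5 cell was higher in 75.4% of couples. That of the 24 endothelial surface genes had a median of 2564 (50.4 to 12258) and 1653 (102.4 to 15021), and the E8.5 cell was higher in 42.5%. A cell held a median of 7 (1 to 14) leukocyte genes with at least 10 counts at E8.25 and 10 (3 to 17) at E8.5. For the endothelial genes this number was 14 (2 to 23) and 14 (3 to 22) (medians of 15 and 14 without the 6 cells). Cells with at least 10 leukocyte genes were 23 of 73 (31.5%) at E8.25 and 53 of 89 (59.6%) at E8.5. Those with at least 10 endothelial genes were 51 (69.9%) and 67 (75.3%). Cells with at least 10 genes of both lists were 22 of 73 (30.1%, 19.9 to 42.0) at E8.25 and 49 of 89 (55.1%, 44.1 to 65.6) at E8.5. These joint shares lay close to those of the leukocyte genes alone and are not a separate difference. Among cells without transcripts of both sexes the joint shares were 15 of 47 (31.9%, 19.1 to 47.1) and 27 of 49 (55.1%, 40.2 to 69.3). Cells joined within 1 sex are not seen by this measure. At the cut of 10 genes, 15 and 20 cells lay within 1 leukocyte gene of it. Across cells the 2 sums were not related by rank, with a Spearman coefficient of -0.02 over 73 cells and -0.13 over 89 cells, given as a description, since each cell's sums share its size factor.

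**Figure D4:**
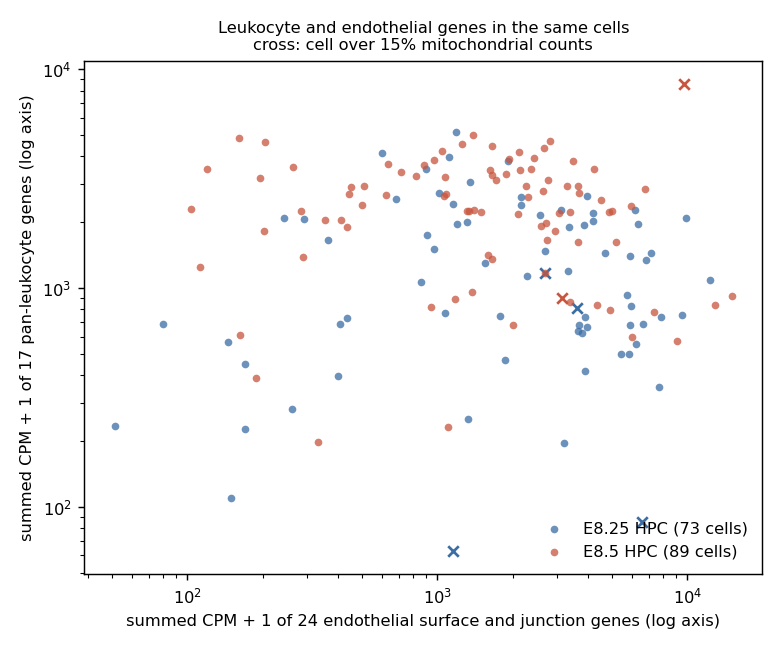
Each point is 1 HPC of E8.25 (blue) or E8.5 (red), placed by its summed CPM + 1 of 24 endothelial surface and junction genes (x) and of 17 pan-leukocyte genes (y), both on log axes, with the 6 high-mitochondrial cells as crosses. The E8.5 cells lie higher, at a median leukocyte sum of 2397 against 1134 CPM, and over much the same span of endothelial sums.

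The genes that differed were set beside the other populations by their means. Of the 195 genes lower at E8.5 without the 6 cells, 73.3% had a higher mean in E8.5 Endo than in HPCs of both stages and 8.21% a lower one. Of the genes higher at E8.5, 15.4% and 38.5% did, and of all genes compared 37.8% and 47.5%. The genes were chosen by the HPC means that also set these shares, so the shares over all genes are not those of an unchanged set, and no difference is read from them. *Map1b* was at 642 CPM in Endo, *Amotl1* at 412, *Nrp1* at 268 and *Ets1* at 1605 CPM, each above both HPC stages. *Coro1a*, *Rac2* and *Fcer1g* were at 4.32, 1.46 and 2.19 CPM in Endo, found in 8.86%, 3.80% and 11.4% of its cells, and *Rgs18* and *Ptprc* had no count there. In the later HPCs, *Coro1a* was at 509 CPM (E9.5) and 504 CPM (E10.5), *Rac2* at 653 and 911 CPM and *Ptprc* at 240 and 294 CPM. *Thbs1* and *Gp1ba* were not high there, at 4.06 and 1.35 CPM at E9.5. Of the genes higher at E8.5, 37.8% had a higher mean in E9.5 HPCs than at both earlier stages and 23.8% a lower one. For the 195 lower genes these shares were 7.69% and 62.6%, and for all genes compared 36.2% and 48.2%, with the same limit.

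**Figure D5:**
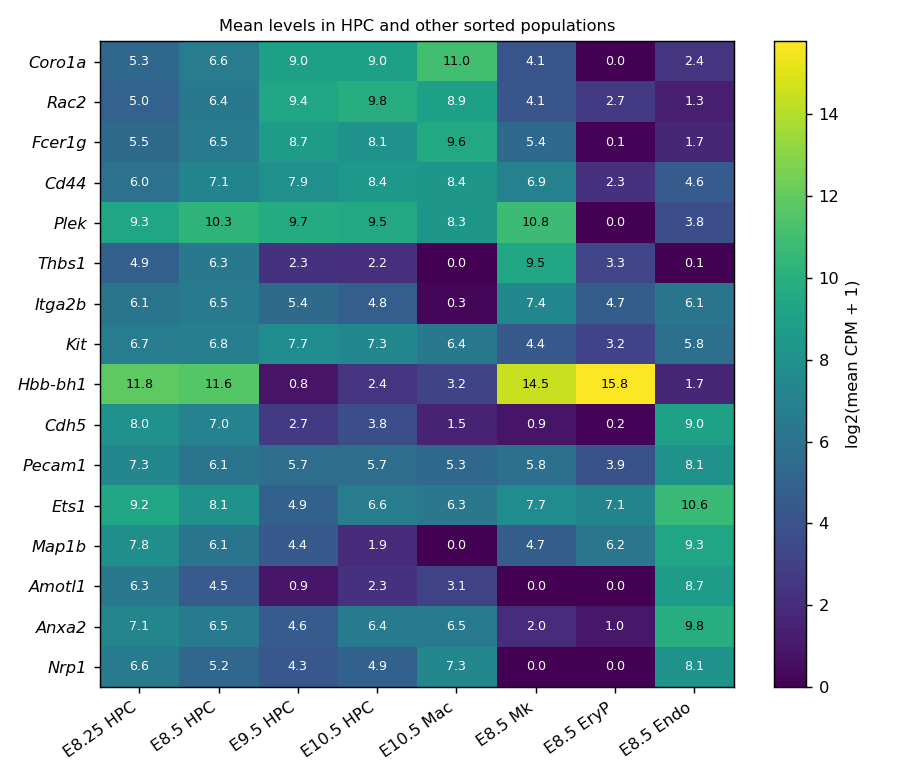
Colour and number give log2 of mean CPM + 1 for 16 genes (rows) in the 2 HPC stages compared and 6 other sorted populations (columns). *Coro1a*, *Rac2* and *Fcer1g* are higher in E9.5 HPC than in either earlier stage. *Ets1*, *Map1b*, *Amotl1* and *Nrp1* have their highest HPC mean at E8.25 and a higher one in Endo. So does *Cdh5*, but its level follows the sort gate in the later HPC and in Endo.

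The blood transcription factors that the erythro-myeloid programme is built on were present at both stages. Of 19 genes 16 were compared and the median log2 ratio was 0.22 (0.17 without the 6 cells, and 0.065 without the cells with transcripts of both sexes). *Ldb1*, a bridging protein of GATA1 complexes, was the only one at least 2-fold higher (1.16), beside 2.12% of all genes compared. For *Ldb1*, 1 E8.5 cell held 64.1% of the stage's sum, and the ratio was -0.27 without the 6 cells. *Runx1* ran from 0 through 135.8 to 624 CPM at E8.25 and from 6.46 through 204 to 768 CPM at E8.5 (log2 ratio 0.42). *Gfi1b*, a repressor of endothelial genes, had a ratio of 0.50 and *Meis1*, a homeobox factor of progenitors and megakaryocytes, of 0.41. *Myb*, needed for definitive blood formation, was found in 71.2% of cells (59.4 to 81.2) at E8.25 and 91.0% (83.1 to 96.0) at E8.5, with means of 35.6 and 39.9 CPM (log2 ratio 0.16, and -0.27 without the cells with transcripts of both sexes). *Ikzf1*, a zinc finger factor of lymphoid and myeloid cells, had a ratio of 0.32, and -3.35 with all captured cells. *Gata1*, the erythroid and megakaryocytic factor, was split between cells. Its means were 204 and 199 CPM, but its medians were 30.6 (0 to 1068) and 132.2 (0 to 722). *Gata2*, the factor of early progenitors, had a ratio of -0.34, and *Lmo2* of -0.10. *Gfi1*, which acts beside GFI1B, was found in 6.85% and 10.1% of cells.

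Erythroid genes did not share a direction. Of 20 genes 15 were compared, none passed 2-fold, and the median was -0.20 (-0.14 without the 6 cells). The embryonic globin *Hba-x* had means of 652 and 341 CPM and *Hbb-y* of 92.8 and 184 CPM, of which single cells supplied up to 51.8% per stage. *Klf1*, the erythroid factor, was found in 28.8% and 36.0% of cells. Of 8 macrophage genes only *Mrc1*, a receptor that Endo also held at 1559 CPM, was compared, with means of 164 and 131.5 CPM.

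Among 12 progenitor surface and cytokine receptor genes 8 were compared. *Il6st*, the gp130 co-receptor of the interleukin 6 family, was at least 2-fold lower, beside 3.08% of all genes compared. Its means were 28.2 and 11.1 CPM (log2 ratio -1.27, and -0.85 with a pseudocount of 10). None of the list was at least 2-fold higher, and the median was -0.23. *Cd93* had a ratio of -0.66 and *Adgrg1* of 0.15. *Flt3* had no count in either stage. Of 13 Notch pathway genes 3 were compared, none past 2-fold (median -0.34, and -0.07 over the 2 genes left without the 6 cells). Below the filter, *Dll4*, a Notch ligand of arterial endothelium, was found in 38.4% of cells (27.2 to 50.5) at E8.25 and 14.6% (8.01 to 23.7) at E8.5, and the target *Hes1* in 57.5% and 41.6%. Of 13 BMP and TGF-beta genes 9 were compared. *Smad5*, a transducer of BMP signals, was higher (30.5 and 65.8 CPM, log2 ratio 1.08, and 0.50 without the cells with transcripts of both sexes), *Id2*, a BMP target, lower (45.8 and 22.4 CPM, log2 ratio -1.002, and -0.35 without the highest 5% of cells), and *Tgfbr1* was higher only with the 6 cells included. Over all genes compared, 2.12% were at least 2-fold higher and 3.08% at least 2-fold lower. The list median was -0.25.

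Housekeeping groups lay close to 0. The 76 ribosomal protein genes compared had a median log2 ratio of -0.01, from -0.41 to 0.52. The 17 S phase genes had a median of 0.08, the 16 mitosis genes of -0.02, the 14 nucleolar and Myc-related genes of 0.08 and the 19 glycolysis and hypoxia genes of 0.01. None of these passed 2-fold except the mitotic kinesin *Kif11* (1.12, and 0.54 without the 6 cells). Of the 9 embryonic timing genes *Lin28a* and *Igf2* were at least 2-fold lower over all cells (-1.22 and -1.06), beside 3.08% of all genes compared. Neither was without the 6 cells (-0.28 and -0.87), and the list median was 0.04. The 5 sex-linked genes had a median of 0.46. Cells with *Xist* and no Y-linked transcripts by the limits above were 15 of 73 (20.6%) at E8.25 and 8 of 89 (8.99%) at E8.5.

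Immediate early genes, which dissociation can induce, had a median ratio above 0. Of 15 genes 6 were compared. *Fos* and *Ier2* were at least 2-fold higher, beside 2.12% of all genes compared, and none was lower. The median was 0.45 (0.72 without the 6 cells). *Ier2* had a ratio of 1.29, and 0.81 without the 6 cells. *Fos* ran from 0 through 0 to 169 CPM at E8.25 and from 0 through 0.583 to 259 CPM at E8.5, and was found in 23.3% (14.2 to 34.6) and 51.7% (40.8 to 62.4) of cells. *Jun* had a ratio of 0.24 (0.97 without the 6 cells). The part of immediate early genes in the other differences was not tested.

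Cells of E8.5 also held more genes. On counts thinned to 840000 per cell, which left out 1 shallower E8.25 cell, the median was 7931 genes (5542 to 9573) over 72 cells at E8.25 and 8608 (4974 to 9439) over 89 cells at E8.5, and the E8.5 cell was higher in 68.7% of couples. Unthinned, the medians were 8496 and 9053. This difference goes in the same direction as the larger shares of cells with leukocyte genes and opposite to the smaller shares with *Nrp1*, *Map1b* and *Emcn*, and its part in the former was not tested.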

How the data were processed

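Single cells of 2 labelled stages were analysed, each stage as 1 sample. The read counts per gene were made by the authors: per the submitters' processing notes and the study's methods, reads of Nextera XT libraries were aligned to GRCm38 with Subread and counted with featureCounts, and cells and genes of low quality were removed. The signal values are CPM that the authors made from the filtered counts with size factors from scran and deposited beside them. Read counts were not collapsed to molecules. Gene coordinates came from GENCODE on GRCm38 and promoter sequences from RefSeq (GRCm38.p6). The deposited comparisons of populations were not used.

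A level is the mean CPM of all cells in a stage, and ratios are log2 of mean CPM + 1. A gene was detected at 1 count. Intervals are exact (Clopper-Pearson, 95%) and, like the limit of 3 cells given when no cell held a gene, cover counting error only. No p-value was computed, since cells of 1 capture are not replicates. All members of 21 lists could be named, and beside them the 15 genes per direction with the largest ratio under the limits given in the text. Some genes these rules take in are not reported here. Alternatives were another pseudocount, filter, fold and scaling, summed or thinned counts, means without the highest 5% of cells, all captured cells, and cells without transcripts of both sexes. Leaving out the cells over 15% mitochondrial counts was added after the data had been seen. The cells compared and the lists were chosen with earlier results of these data known. The method was tested on simulated data in which all genes had the same kind of spread between cells. Single cells holding much of a gene's sum were not simulated, so the stability of the calls made here was not tested. Computations ran in Python 3.11.15 (with pandas 2.3.3, numpy 2.4.6 and scipy 1.17.1), and plots were drawn with matplotlib 3.10.9.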

Additional observations from a re-analysis of the deposited data

How the results depend on the processing

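Genes at least 2-fold higher at E8.5 were 179 (2.12% of those compared) and lower ones 260 (3.08%). With a pseudocount of 10 they were 50 genes (0.592%) and 1.36% of genes, with no filter 797 (4.99%) and 879 (5.51%), with a stricter filter of 100 CPM and 50% of cells 9 (0.404%) and 38 (1.71%), and with a limit of 1.5-fold 676 (8.00%) and 743 (8.79%). With means taken without the highest 5% of cells the lower genes were 1.78% of those compared. Other scalings, summed or thinned counts, a pseudocount of 0.1, all captured cells and both exclusions of cells left both counts within 1.5 times. The median of the endothelial surface genes was -1.01 without the 66 cells with transcripts of both sexes, against -0.41, and that of the pan-leukocyte genes ran from 0.81 (without these cells) to 1.20 (without the highest 5% of cells). The macrophage value, *Mrc1* alone, was -1.24 without the highest 5% of cells and -1.31 without the cells with transcripts of both sexes. The Notch median ran from -0.35 to 0.11 and that of the embryonic timing genes from -0.38 to 0.21, so each took both signs, as did those of the mitosis genes (-0.053 to 0.041) and ribosomal protein genes (-0.024 to 0.080). Over these alternatives the blood transcription factors ran from 0.065 (without the cells with transcripts of both sexes) to 0.36, the myeloid genes from 0.45 (without the highest 5% of cells) to 0.98, the immediate early genes from 0.34 to 0.89, the erythroid genes from -0.20 to -0.024 and the sex-linked genes from 0.42 to 0.85. The megakaryocyte genes ran from 0.53 to 0.84 and the endothelial transcription factors from -0.77 to -0.56. By a limit of a 1.5-fold change, 1 list median was rated as moved without the highest 5% of cells. Without the cells with transcripts of both sexes 2 were. The median number of genes detected per cell was higher at E8.5 in each alternative run. Shares of cells depended on the count asked for. With 10 counts in place of 1, 401 shares of single genes were rated as moved and 255 as the same. The cause of these changes was not tested.

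Of 243 single genes, 53 changed sign under at least 1 alternative. Among genes past 2-fold these were 5 (*Ldb1*, *Appl2*, *Ints12*, *Cdc42ep1* and *Ddx24*). *Ldb1* was below 0 (-0.17 without the highest 5% of cells, -0.27 without the high-mitochondrial cells), as was *Appl2* (-0.044 and -0.045 in the same order). Without the cells with transcripts of both sexes, *Appl2* was -0.33, *Ints12* -0.39, *Cdc42ep1* 0.38 (0.066 on thinned counts) and *Ddx24* 0.14. Among the others, *Igf2bp2* was -4.44 and *Ikzf1* -3.35 with all captured cells, against 0.27 and 0.32, and *Jag1* was 2.15 without the cells with transcripts of both sexes, against -0.62. Among the leukocyte genes *Vav1* was 0.51 and *Lcp1* 0.86 without the cells with transcripts of both sexes, and *Thbs1* was 0.66, so these 3 were not past 2-fold. No paired analysis was possible because the labels name no pairs of cells between the stages. Each stage was taken as 1 capture and no spread between embryos could be had, which limits every value here.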
